A study of Mus musculus with 3 samples.

Results

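The Flag-Tex10 peaks described here are those around Socs3, a target of leukaemia inhibitory factor (LIF), and around Id1, Id2 and Id3, targets of bone morphogenetic protein (BMP), in mouse embryonic stem (ES) cells. They were found by position, as every deposited peak that overlapped by at least 1 bp a window of 105 kb around Socs3, Id1 or Id3 or of 100 kb around Id2. The rule gave 7 of the 5189 peaks in the list: 2 at Socs3, 3 at Id1, 0 at Id2 and 2 at Id3. For comparison, 14.4% of the windows of 105 kb that tile the autosomes and X, and 13.8% of those of 100 kb, held at least 1 peak. On the mm9 build the windows were chr11:117775000-117880000 for Socs3, chr2:152510000-152615000 for Id1, chr12:25730000-25830000 for Id2 and chr4:135650000-135755000 for Id3.

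The series holds 3 libraries of 100 bp single-end reads, 1 per group and with no replicate: a chromatin immunoprecipitation (ChIP) with an antibody against the Flag epitope, a ChIP with normal mouse IgG, and input DNA. All 3 are labelled as coming from the same cells, J1 ES cells of strain 129SV that carried an ectopic 3xFlag-Tex10 transgene delivered by piggybac vectors and were kept on gelatin with 15% serum and LIF. The labels name no promoter for the transgene, and the controls carry the transgene too, so no library comes from untagged cells. Only the Flag library had a processed file, a peak list without read counts. Its depth is unknown, its scores have no IgG or input value beside them, and neither the ES cell markers nor the level of the transgene can be read from it.

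Tex10 is a nuclear protein that also belongs to a complex acting in ribosome biogenesis, and the series places it in the control of super-enhancers in pluripotent cells. LIF binds the LIF receptor and its partner gp130, which activates JAK kinases and the transcription factor STAT3. STAT3 induces Socs3, whose product inhibits the receptor complex and so closes a feedback loop. BMP acts through receptor kinases that activate SMAD1 and SMAD5, which join SMAD4 and induce Id genes. Id proteins are helix-loop-helix proteins without a DNA-binding region that hold back basic helix-loop-helix factors, and with LIF they are known to support self-renewal of mouse ES cells in culture.

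The sequences at the start sites of these genes were searched for the letters of STAT and SMAD factors, among others, where a promoter entry was matched. RefSeq promoter entries of build GRCm38.p6 were matched by symbol for 3 of the 4 genes: Socs3, Id2 and Id3. The 250 bases before the start are printed 5′ to 3′ on the gene's strand, with capitals for each match to a searched motif. These coordinates belong to a later build than the peaks, so a peak cannot be placed on these sequences.
Socs3 (GRCm38.p6, chr11:117969367-117969616, minus strand): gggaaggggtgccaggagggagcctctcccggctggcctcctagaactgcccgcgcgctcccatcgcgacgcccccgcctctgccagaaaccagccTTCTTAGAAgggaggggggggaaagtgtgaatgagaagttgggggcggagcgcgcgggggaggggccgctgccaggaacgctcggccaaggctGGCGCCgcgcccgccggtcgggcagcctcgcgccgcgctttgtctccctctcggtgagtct
Id2 (GRCm38.p6, chr12:25096093-25096342, minus strand): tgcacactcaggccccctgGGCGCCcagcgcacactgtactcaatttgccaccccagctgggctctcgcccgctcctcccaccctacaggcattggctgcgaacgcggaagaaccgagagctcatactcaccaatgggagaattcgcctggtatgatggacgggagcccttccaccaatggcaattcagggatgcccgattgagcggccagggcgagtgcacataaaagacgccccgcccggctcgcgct
Id3 (GRCm38.p6, chr4:136143572-136143821, plus strand): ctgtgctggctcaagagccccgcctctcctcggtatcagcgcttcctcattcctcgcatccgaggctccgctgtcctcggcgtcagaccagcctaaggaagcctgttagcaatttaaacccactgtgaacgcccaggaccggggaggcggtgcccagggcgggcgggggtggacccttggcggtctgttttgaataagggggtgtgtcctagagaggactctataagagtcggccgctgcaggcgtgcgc

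Both strands of the 300 bases in the table, of which the last 50 follow the start, were searched for 6 motifs. These were TTCNNNGAA, the spaced palindrome of STAT factors, GGCGCC and a longer motif that joins GGCGNC to GTCT through a short spacer, both linked to SMAD1 and SMAD5 with SMAD4, the E-box CACGTG, the cyclic AMP response element TGACGTCA and the TATA box letters TATAAA. The longer SMAD motif can overlap GGCGCC. The Socs3 promoter held TTCTTAGAA, a match to the STAT letters that began 154 bases before the start, and GGCGCC 61 bases before it. The STAT letters occurred in 8.30% of the 32851 promoters in the table, and GGCGCC in 11.9%. The Id2 promoter held GGCGCC 231 bases before its start, and the Id3 promoter held none of the 6 motifs. The other 4 motifs had 0 matches in the 3 promoters. They occurred in 0.24% (the longer SMAD motif), 7.15% (E-box), 1.79% (cyclic AMP response element) and 13.6% (TATA letters) of all promoters.

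The 3 promoters were rich in G and C. The Socs3 window of 300 bases had 73.3% G and C and 31 CpG dinucleotides, the Id2 window 63.3% and 21, and the Id3 window 60.0% and 19. The median promoter had 52.7% and 7. Socs3 stood highest of the 3, with a lower G and C share in 94.5% of all promoters, against 78.4% for Id2 and 70.5% for Id3.

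Among other genes of the LIF and BMP pathways, 17 of 19 had a promoter in the table. The STAT letters were found at 0 of these 17 genes, where 9.55% of all 27025 genes in the table had them in at least 1 promoter. GGCGCC was found at 7 of the 17, against 13.4% of all genes: at Lifr, which encodes the LIF receptor, at Jak1, a kinase below it, at the transcription factor genes Tfcp2l1 and Gbx2, at the BMP receptor gene Bmpr1a, at Smad5 and at Id4, a further Id gene. It was found at 4 of 10 LIF genes and 3 of 7 BMP genes of the list. The E-box was found at 4 of the 17 (Klf4, Gbx2, Pim1 and Bmp4), against 8.09% of all genes. The cyclic AMP response element was found at 1 (Jak1), against 2.03%, the TATA letters at 1 (Tfcp2l1), against 15.7%, and the longer SMAD motif at 0, against 0.28%. GGCGCC is made of G and C alone and these counts were not adjusted for base composition. A match is a description of letters and says nothing of binding in these cells.

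Peaks were present in 3 of the 4 windows, against 14.4% of the 25123 tiled windows of 105 kb. At least 2 peaks, the count at Socs3 and at Id3, were found in 3.94% of the 105 kb windows. At least 3, the count at Id1, were found in 1.3%. These tiles include sequence far from any gene, so they are a background for genomic windows and not for windows around genes. The chromosomes themselves differed: 21.7% of the windows of chromosome 11 (Socs3), 16.2% of chromosome 2 (Id1), 17.9% of chromosome 4 (Id3) and 11.9% of chromosome 12 (Id2) held a peak.

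**Figure D1:**
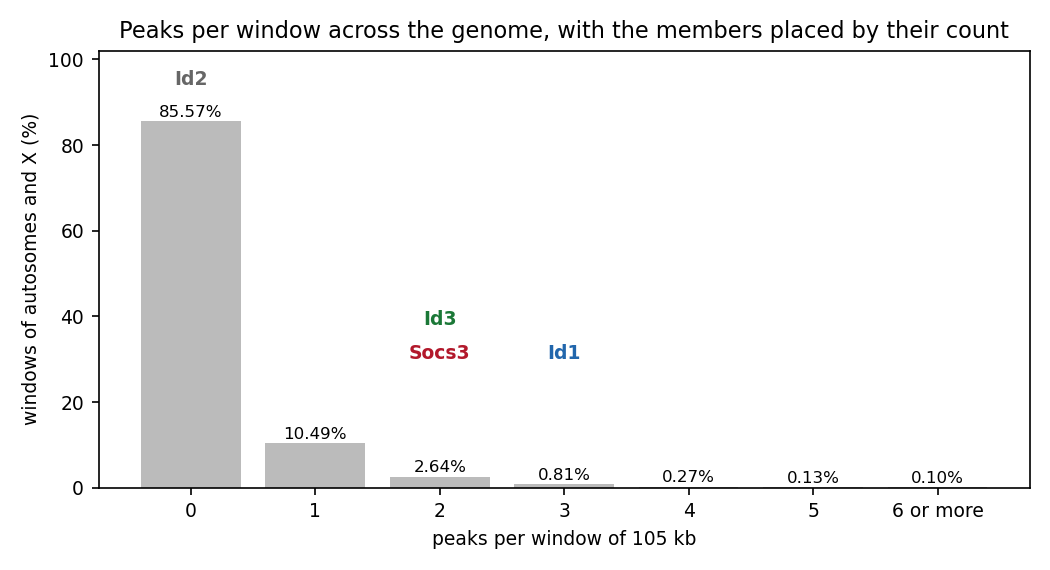
The bars give the percent of 105 kb windows of the autosomes and X (y axis) by the number of Flag-Tex10 peaks they held (x axis), and the gene names stand above the number found in their own windows (the Id2 window is 100 kb). Windows with 0 peaks, as at Id2, made up 85.6% of all, and windows with exactly 2 or exactly 3, as at Socs3, Id3 and Id1, made up 2.64% and 0.81%.

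The regions around the 3 occupied windows were dense in peaks as well. In the 5 Mb centred on each window there were 34 peaks at Socs3, 33 at Id1 and 42 at Id3, where the median 5 Mb bin held 7, with quartiles of 3 and 14. Only 0.19% of the 5 Mb bins held more peaks than the region of Id3. At the density of its own 5 Mb, a window of 105 kb would hold 0.71 peaks at Socs3, 0.69 at Id1 and 0.88 at Id3. The 5 Mb around Id2 held 6 peaks, which 52.8% of bins exceeded. In the 1 Mb centred on each window the picture was different for Socs3, which had 3 peaks, 2 of them in its window. Id1 had 10, Id3 had 7 and Id2 had 2 (median bin 1). The part of regional peak density in the counts of the windows was not tested.

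At Socs3, the feedback inhibitor of LIF signalling, both peaks lay close together and had low to middling scores. The first, chr11:117833939-117834277, was 339 bp wide and scored 4.91. The second, chr11:117836835-117837079, was 245 bp wide and scored 4.05. The gap between them was 2557 bp, and together they spanned 3.14 kb. They lay 6.61 and 9.46 kb to the higher side of the window's midpoint. The scale of the score is not named in the file, and a score serves here only to rank peaks within the list: 53.2% of all peaks scored higher than the first and 67.4% higher than the second. No other peak was near, since the next ones lay 593 kb below the window's lower edge (score 2.83) and 272 kb above its upper edge (score 3.91).

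At Id1, 2 of the 3 peaks stood at the middle of the window and the strongest stood apart from them. The central pair were chr2:152560875-152561179, 305 bp wide with a score of 4.91, and chr2:152563200-152563566, 367 bp wide with a score of 5.86. Their gap was 2020 bp, their span was 2.69 kb, and they lay on either side of the midpoint, 1.47 and 0.88 kb from it. The third peak, chr2:152533373-152533677, lay 27.2 kb below the pair, was 305 bp wide and scored 7.99, the highest of all 7 members. In the list, 22.8% of peaks scored above it, 39.7% above the second of the pair and 53.2% above the first. The nearest peak outside the window was only 15.0 kb beyond its upper edge and scored 6.35, so the count of 3 depends on where the window ends; on the lower side the next peak was 285 kb away (score 5.84).

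At Id3 the peaks were single. The stronger, chr4:135702668-135702960, was 293 bp wide, scored 7.89 and lay 0.31 kb from the midpoint of the window. The other, chr4:135733208-135733549, was 342 bp wide, scored 4.97 and lay 30.9 kb to the higher side. They were 30.2 kb apart. The stronger one was outscored by 23.0% of the list and the other by 52.1%. Outside the window, the nearest peaks were 72.2 kb below it (score 6.19) and 119 kb above it (score 4.05).

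**Figure D2:**
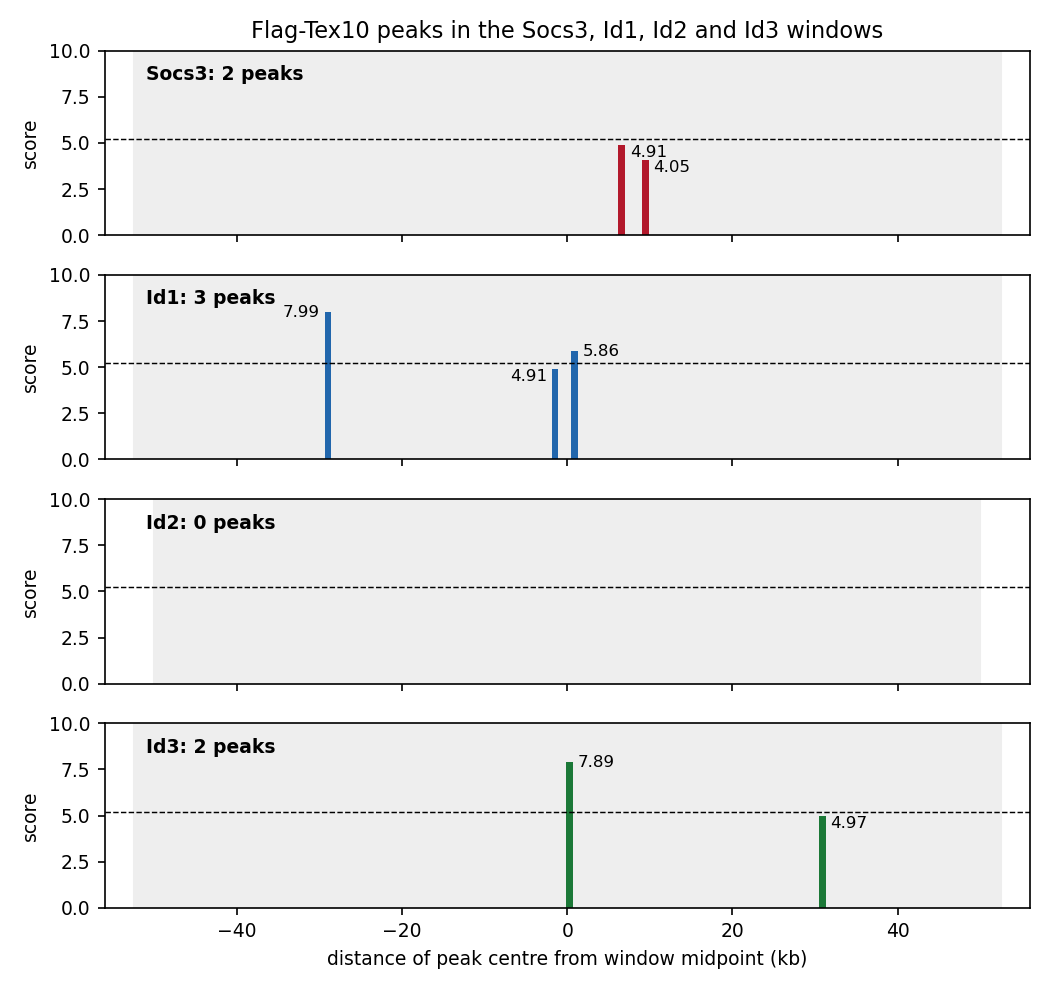
Each panel is 1 gene's window (grey), with the distance of a peak's centre from the window's midpoint in kb on the x axis and its deposited score on the y axis; bars are single peaks and the dashed line is the median score of the list, 5.22. Id1 and Id3 had a peak within 1 kb of the midpoint, the Socs3 pair lay 6.61 and 9.46 kb from it, and Id2 had none.

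Id2 differed from the other 3 genes in having no peak in its window. The closest peak on the lower side, chr12:25393000-25393332, lay 337 kb beyond the window's edge and scored 3.06. On the upper side the closest was 1995 kb away, chr12:27825173-27825469, with a score of 6.76. The peak-free interval that holds the window was therefore 2432 kb long, where the median interval between neighbouring peaks was 141 kb. Of 5140 intervals on the autosomes and X, 227 (4.42%) were longer, but long intervals cover much sequence: 39.2% of the length of these chromosomes lay in intervals at least as long. A list holds only peaks past its caller's threshold, so lower enrichment at Id2 cannot be seen in it.

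**Figure D3:**
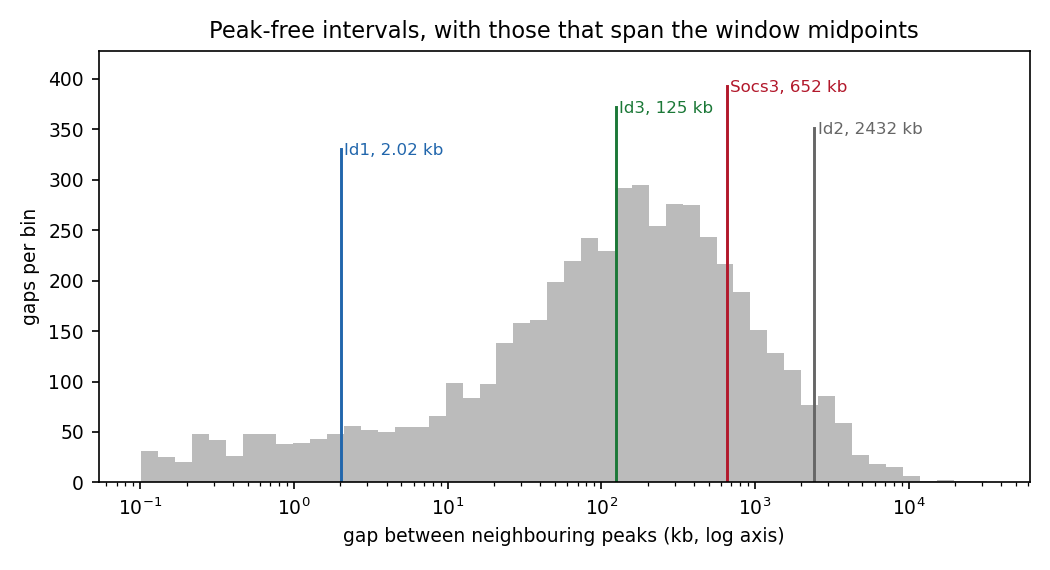
The histogram counts peak-free intervals between neighbouring peaks of the autosomes and X (y axis) by their length in kb (x axis, log scale), and coloured lines mark the interval that spans the midpoint of each gene's window. The Id1 midpoint lay between the 2 central peaks (2.02 kb), those of Id3 (125 kb) and Socs3 (652 kb) lay in intervals that end at a member peak, and that of Id2 lay in an interval of 2432 kb.

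Set against the list, the 7 peaks were ordinary in strength and width. Their scores ran from 4.05 to 7.99 with a median of 4.97, where the list had a median of 5.22, quartiles of 3.75 and 7.73, and a range of 1.31 to 432. Above the list's median were 3 of the 7, 2 at Id1 and 1 at Id3, and above its upper quartile were 2, the strongest at Id1 and at Id3. A score of at least 10, which 14.5% of the list reached, was reached by 0 of the 7. Widths ran from 245 to 367 bp around a median of 305 bp, against 314 bp in the list, and 6 of the 7 lay between the list's quartiles of 253 and 402 bp. The 7 peaks covered 2196 bp of the 415 kb in the 4 windows.

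**Figure D4:**
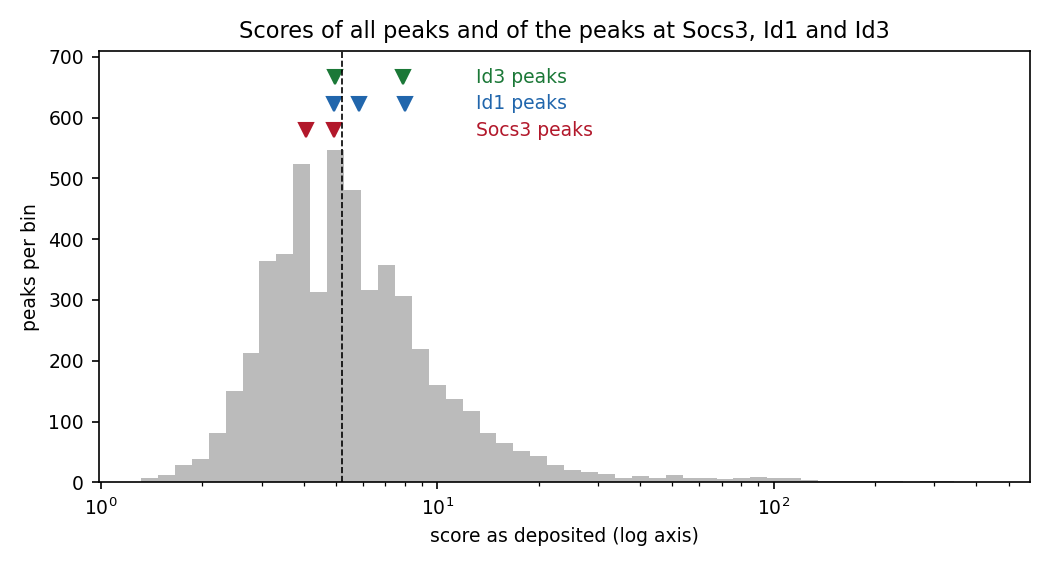
Grey bars count all peaks of the list (y axis) by deposited score (x axis, log scale), triangles mark the peaks of Socs3, Id1 and Id3, and the dashed line is the list's median of 5.22. All 7 triangles fall between 4.05 and 7.99, in the body of the distribution.

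Exact score values recurred among the members. The first Socs3 peak and the first of the central Id1 pair had the same score, 4.91, which 118 peaks of the list shared, and the second Socs3 peak had a score, 4.05, that 150 peaks shared. In the whole list 5 scores recurred in at least 90 peaks each, 573 peaks or 11.0% in all, and 3 of the 7 members had such a score. The limit of 90 peaks was chosen with the scores known. The strongest Id1 peak shared its score with 1 other peak and the strongest Id3 peak was among 22 of equal score. With ties this common, the ranks of the weaker members are not exact.

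The grouping of the members was that of close pairs and single peaks. Neighbouring peaks were joined into stretches at a distance between 12.48 kb, the longest gap joined, and 12.53 kb, the shortest left apart. The Socs3 peaks formed 1 pair, the central Id1 peaks another, and the remaining 3 peaks stayed single. None of the windows held a stretch of 3 or more peaks, the form taken by 159 of the 4271 stretches on the autosomes and X. Of all peaks there, 70.6% were single, 18.2% were in pairs and 11.2% in stretches of 3 or more. Among 470 pairs the median span was 2.69 kb, with quartiles of 1.28 and 7.17 kb, and the spans at Socs3 and Id1 lay within these quartiles. The higher score of the pair was 4.91 at Socs3 and 5.86 at Id1, both below the median of 6.76 over all pairs. A neighbour less than 5 kb away was found for 4 of the 7 members and for 21.8% of peaks on the autosomes and X. The 4 members are the 2 pairs already named, so each gap is counted from both of its peaks.

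Peaks were not assigned to genes, because the positions of genes on mm9 were not used here; the midpoint of a window is not a start site. In the order of protein-coding genes of GRCm38.p6, Socs3 lies between Tha1 and Pgs1, Id1 between Mcts2 and Cox4i2, which encodes a subunit of cytochrome c oxidase, Id2 between Kidins220 and Rnf144a, and Id3 between the ribosomal protein gene Rpl11 and the cell cycle factor gene E2f2. A peak in one of the windows may therefore lie nearer to a neighbour than to the gene for which the window is named. With 1 library, no test between conditions and no measure of spread was possible, and the values describe the places of called peaks in this immunoprecipitation.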

How the data were processed

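The authors deposited 1 peak list, for the Flag library, with a chromosome, start, end, name and a score per peak; no header names the score's scale, and the peak caller, control and threshold are not given in the sources used here. Per the submitters' processing notes, which state no roles, the tools were bedtools 2.18.1, SAMtools 0.1.19, Bowtie 1.0.0 and FastQC 0.10.1, on build mm9. Starts are given 1-based. Python 3.11.15, numpy 2.4.6, pandas 2.3.3 and scipy 1.17.1 counted peaks per window, in tiles of the same length over the autosomes and X, and in stretches; mm9 chromosome lengths came from GenomeInfoDb 1.38.1, with assembly gaps left in. Counting was tested on simulated peaks. Figures used matplotlib 3.10.9. Every peak in a window is named, and all 4 genes. Windows, motifs and pathway genes were chosen with earlier results of these data known, so no p-value is given. Alternatives were score limits, peak joining, overlap, window width, tiling and joining distance. Neither control library was used here.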

Additional observations from a re-analysis of the deposited data

How the results depend on the processing

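Of 75 values under other settings, 46 stayed within 1.5 times the reported count or within the 95% Wilson interval of the reported share, which covers counting error only, and 29 moved. Some of the 46 could not have moved, so the tally is no measure of stability. A fall from 3 to 2 windows with a peak, seen above the median score, lay at the limit and counts among the 46. The same holds for the Id1 count, which fell from 3 to 2 above the median score and in the middle 50% of its window. With only peaks above the median score, the count fell to 0 at Socs3 and 1 at Id3, and the shares of windows with at least 1, 2 and 3 peaks were 8.26%, 1.48% and 0.35% (7.91% for windows of 100 kb with at least 1). With only scores of at least 10, Socs3, Id1 and Id3 had 0 peaks each, so 0 of 4 windows held one, and the shares were 2.69%, 0.20% and 0.040% (2.54% at 100 kb). In a window of double width Id1 had 6 peaks, and in the middle 50% of its window Id3 had 1. Joining peaks under 500 bp apart gave shares of 3.59% for at least 2 peaks and 1.08% for at least 3. On single chromosomes the share with at least 1 peak was 21.7% (11), 16.2% (2), 17.9% (4) and, at 100 kb, 11.9% (12), and with at least 2 it was 7.84% (11) and 4.99% (4). Without X the share with at least 1 peak was 15.3%, or 14.6% at 100 kb. With scores divided by width, 51.1% of peaks lay above the best Socs3 peak, 19.4% above that of Id1 and 18.1% above that of Id3. By this measure the best Socs3 peak was the second, of 245 bp, and not the first. These moves follow from fewer peaks, another window or another denominator. Id2 had 0 peaks under all 6 alternatives, but none could have given another count. Its window had no peak to lose, and the nearest listed peak lay 337 kb beyond the edge, outside the window of double width. The numbers of stretches and motif matches did not move, and they could not have moved either. Joining distances of 5 and 25 kb were tried, where the pairs had gaps of 2020 and 2557 bp. The single peaks lay at least 27.2 kb from a neighbour. Every motif match lay wholly before the start. No paired analysis was possible because there is a single Flag library with no replicate. Depth is unknown and limits which peaks are listed.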
